A study of Mus musculus with 6 samples.

Results

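The genes described here are 8 effector genes of cytotoxic lymphocytes: Prf1, Gzma, Gzmb, Nkg7, Ifng, Ccl3, Ccl4 and Ccl5. They were followed through mSin3A islands, the broad enriched regions listed from chromatin immunoprecipitation and sequencing (ChIP-seq) of mouse splenic T cells sorted as CD8+ with high TCRbeta. Islands were taken wherever they shared at least 1 bp with one of 7 fixed mm9 windows of 22 to 39 kb, with Ccl3 and Ccl4 in one window. This gave 31 islands of 54058 in the 4 deposited lists. One set of animals lacked Tcf1 and Lef1 (genotype given as Tcf1-/-Lef1-/-, deleted with CD4-Cre, which is active from the thymocyte stage that expresses Cd4 and Cd8 together), and the other was wild type (WT). Each genotype gave 1 ChIP library in condition 1 and 1 in condition 2. The labels do not say what the conditions are, nor animal numbers, ages or activation state, so the conditions were not treated as replicates and no test between genotypes was made. Every difference below is between single libraries, and its interval covers counting error only. The labelled cell type could not be checked against marker genes, because island lists hold no expression values.

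mSin3A is the scaffold of a co-repressor complex that carries histone deacetylases and is brought to chromatin by sequence-specific factors. Tcf1 and Lef1 are related DNA-binding factors with an HMG box that act throughout T cell development. Killing by CD8 T cells rests on perforin, encoded by Prf1, which forms pores in the target membrane, and on granzymes, serine proteases that enter through them and are encoded by Gzma, Gzmb and related genes. Nkg7 encodes a granule membrane protein needed for efficient release of cytotoxic granules. Ifng encodes interferon gamma, and Ccl3, Ccl4 and Ccl5 encode chemokines, secreted proteins that attract other immune cells. In resting CD8 T cells most of this programme is low and it is switched on after stimulation.

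The 4 lists held 15954 and 13556 islands in deficient cells and 13397 and 11151 islands in WT cells, the value of condition 1 preceding that of condition 2 in each genotype, as in every such pair of values. They summed to 1901826 and 1917097 island reads in deficient cells and 1857866 and 1792952 island reads in WT cells. Total sequencing depth is not given in the sources used here, and the 2 input libraries were not analysed here. A list holds called islands only, so the read number of an unlisted stretch is unknown. The smallest listed island held 18 and 23 reads in deficient cells and 16 and 19 reads in WT cells.

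The promoters of 6 of the 8 genes were found in the RefSeq promoter table (GRCm38.p6); Ccl4 and Ccl5 had no entry. The 250 bases before the annotated start are printed for 4 genes that span the range of mSin3A calls: Nkg7 and Prf1, whose windows held an island in every library, Gzmb, with an island in 1 library, and Gzma, with none. Capitals mark matches to TGTGGT (RUNX) and TCACAC (T-box) on either strand. The letters of the TCF/LEF core, CTTTGA, were searched in the same way.
Nkg7 (chr7:43436888-43437137, plus strand): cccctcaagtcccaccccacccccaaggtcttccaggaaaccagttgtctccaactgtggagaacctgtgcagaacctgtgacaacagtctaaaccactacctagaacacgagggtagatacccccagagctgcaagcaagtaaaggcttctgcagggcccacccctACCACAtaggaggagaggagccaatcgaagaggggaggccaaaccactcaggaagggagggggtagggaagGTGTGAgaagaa
Prf1 (chr10:61297586-61297835, plus strand): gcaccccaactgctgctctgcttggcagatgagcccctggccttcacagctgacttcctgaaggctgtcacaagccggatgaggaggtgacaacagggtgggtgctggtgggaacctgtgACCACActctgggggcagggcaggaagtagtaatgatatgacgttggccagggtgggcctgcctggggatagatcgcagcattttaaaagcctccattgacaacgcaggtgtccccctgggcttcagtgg
Gzmb (chr14:56262335-56262584, minus strand): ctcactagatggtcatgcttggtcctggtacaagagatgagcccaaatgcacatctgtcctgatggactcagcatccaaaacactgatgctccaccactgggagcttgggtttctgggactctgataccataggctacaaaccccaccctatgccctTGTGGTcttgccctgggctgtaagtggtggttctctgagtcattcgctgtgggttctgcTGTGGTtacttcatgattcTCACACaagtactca
Gzma (chr13:113100982-113101231, minus strand): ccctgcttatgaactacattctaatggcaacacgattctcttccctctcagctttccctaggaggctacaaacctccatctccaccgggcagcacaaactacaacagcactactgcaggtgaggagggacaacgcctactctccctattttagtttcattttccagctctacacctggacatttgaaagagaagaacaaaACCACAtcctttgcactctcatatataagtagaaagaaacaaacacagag
None of the 6 promoters held CTTTGA, which was present in 13.8% of the 32851 promoters in the table. TGTGGT, present in 14.0% of all promoters, was found in 5 of the 6, including 2 copies at Gzmb, and not at Ifng. Relative to the annotated start, the Gzmb copies began at -93 and -34, the Nkg7 copy at -83, the Prf1 copy at -130, the Gzma copy at -50 and the Ccl3 copy at -122. TCACAC, present in 12.3% of all promoters, was found at Gzmb, beginning at -15, and at Nkg7, beginning at -12. No 2 matches overlapped. These matches describe letters within these windows only. They could not be laid over the islands, because the promoters are placed on GRCm38 and the islands on mm9, and no gene start was placed inside an island.

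mSin3A islands were concentrated at Nkg7 and Prf1, patchy at the chemokine genes, present in some libraries at Ifng and Gzmb, and not listed at Gzma. In such bulk libraries more cells with mSin3A at a locus and more mSin3A per cell cannot be told apart. In the deficient libraries 5 and 5 of the 7 windows held an island, against 4 and 5 in the WT libraries. As background, when the chromosomes were cut into bins of 27 kb, the median window length, 14.0% and 12.8% of bins held an island in the deficient libraries and 12.9% and 11.3% in the WT libraries. Islands were found in all 4 libraries in 4 of the 7 windows, those of Prf1, Ccl5, Ccl3 and Ccl4, and Nkg7, against 6.88% of bins, and in at least 1 library in 6 of the 7, against 20.8% of bins. The bins include chromosome stretches without genes, so these shares are not a comparison with other genes.

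**Figure D1:**
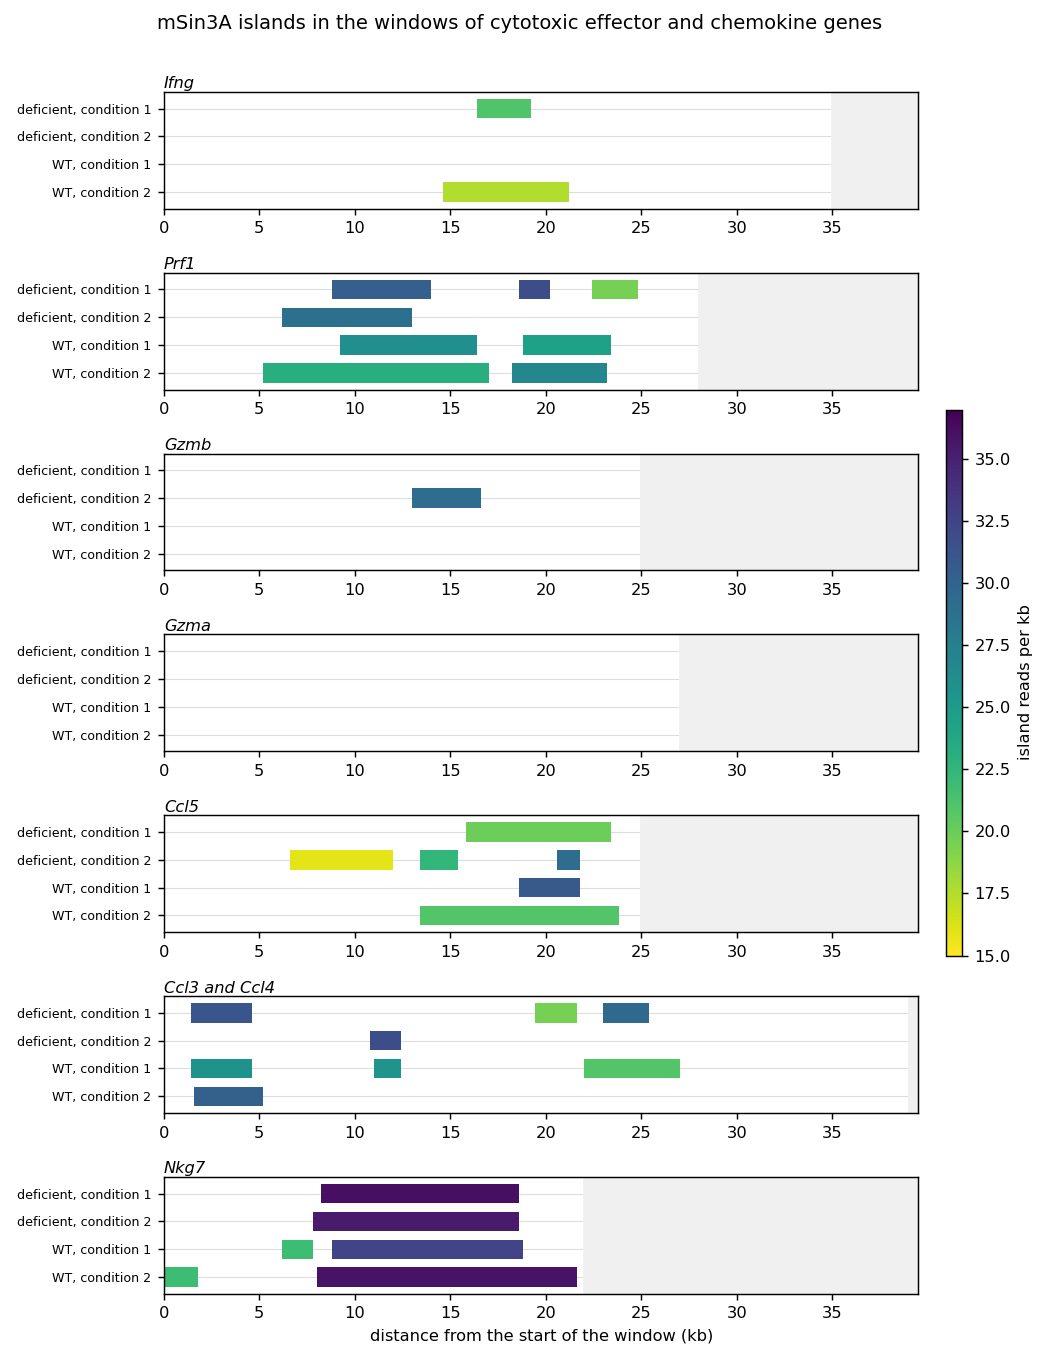
Map of the 31 mSin3A islands in the 7 windows, 1 row per library, by distance from the start of each window in kb; colour gives reads per kb of the island and grey marks the end of the window. The main Nkg7 island spans 9999 to 13599 bp over nearly the same place in every library, and the Gzma window is empty in all 4.

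Together the windows were covered by islands over 18.8% and 15.6% of their bases in the deficient libraries and 18.0% and 26.3% in the WT libraries. The same share over all chromosomes was 2.55% in both deficient libraries and 2.52% and 2.38% in the WT libraries. That share also includes stretches without genes, and the windows were chosen with earlier results of these data known. It is no comparison with other genes. Listed islands of the windows summed to 1056 and 901 reads in deficient cells and 984 and 1473 reads in WT cells, over different sets of islands. WT condition 2 was thus the highest library in both measures, and the other 3 libraries lay close together.

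**Figure D2:**
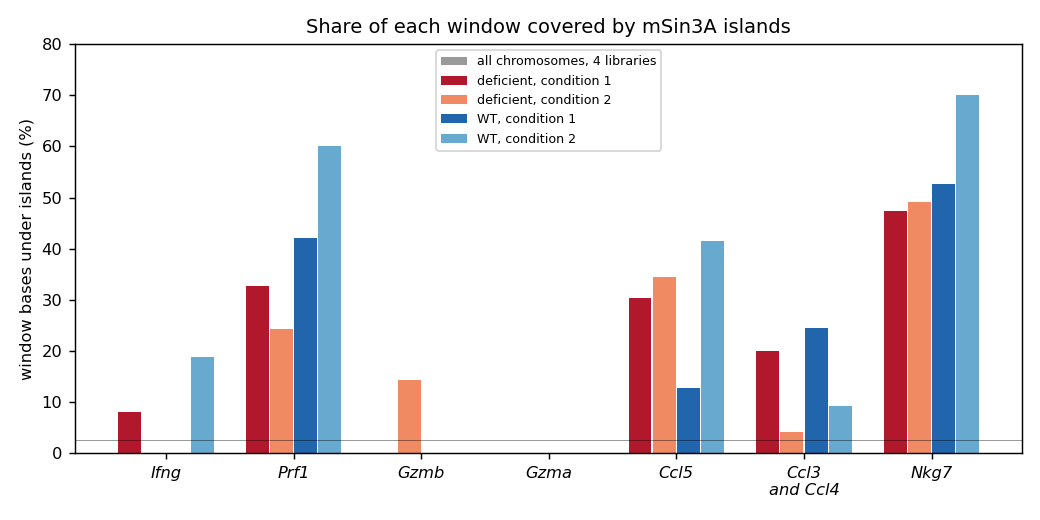
Share of the bases of each window under mSin3A islands (vertical axis, %), with a bar per library; the thin grey band is the share over all chromosomes in the 4 libraries, 2.38% to 2.55%. Nkg7 is covered over 47.3% to 70.0% and Gzma over none in every library.

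The 31 islands were ordinary in strength as a group, with exceptions at the top. Of the 31, 14 held more reads than the median island of their own list, and 14 exceeded the median reads per kb. The median island held 94 and 112 reads in the deficient lists and 106 and 127 reads in the WT lists. Only at Nkg7 did an island reach the 94.5th percentile or above in every list, while islands of the Ccl3 and Ccl4 window stayed at or below the 52.9th percentile.

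**Figure D3:**
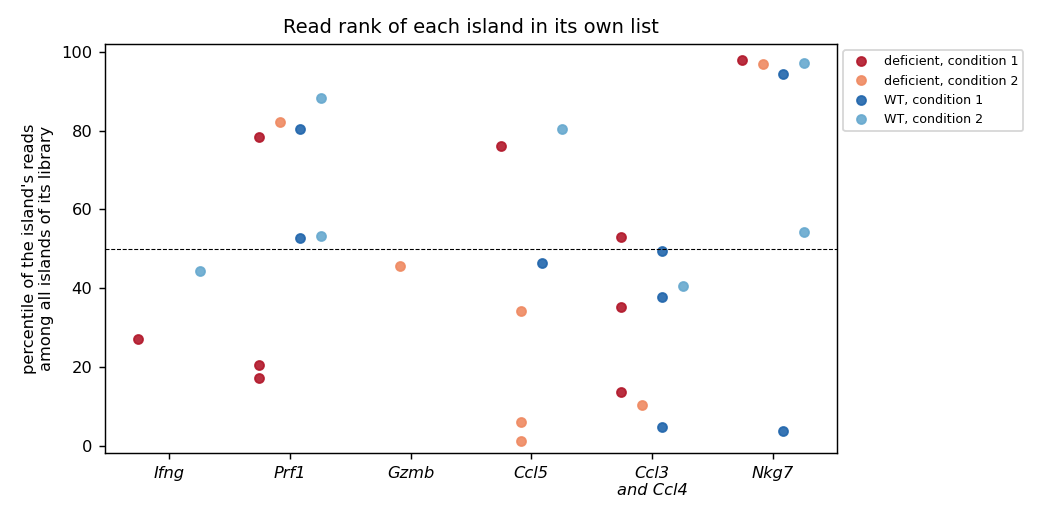
Percentile of each island's read number among all islands of its own library (vertical axis), by locus and library; the dashed line is the median and Gzma, with no island, is left out. The main Nkg7 islands lie between the 94.5th and 97.9th percentiles, the first Prf1 islands between the 78.3rd and 88.2nd.

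Among the granule genes, Nkg7 carried the strongest mSin3A islands and the most alike between libraries. On GRCm38 it lies between the coding genes Lim2 and Cldnd2, so a broad island here may cover more than 1 gene. A main island was listed in each library: chromosome 7, 50690201 to 50700599 with 376 reads in deficient condition 1, 50689801 to 50700599 with 382 reads in deficient condition 2, 50690801 to 50700799 with 326 reads in WT condition 1, and 50690001 to 50703599 with 488 reads in WT condition 2. Their densities were 36.2 and 35.4 reads per kb in deficient cells and 32.6 and 35.9 reads per kb in WT cells. A stretch of 9799 bp, from 50690801 to 50700599, was called in all 4 libraries, out of 17198 bp called in any; at Prf1 3799 of 18398 bp were. The deficient islands ended at the same base, and the WT island of condition 2 ran further.

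Read numbers at Nkg7 overlapped between the genotypes. After merging islands that share a base or touch, the main region held 376 and 382 reads in deficient cells and 361 and 488 reads in WT cells, the value of WT condition 1 including a small island of 35 reads just before the main one. The log2 ratio of deficient to WT, centred on the median of regions called in all 4 libraries, was 0.12 in condition 1 (95% interval -0.09 to 0.33) and -0.27 in condition 2 (-0.47 to -0.07). A further region at the start of the window, chromosome 7, 50675601 to 50683799, held 100 and 101 reads in deficient cells, was not listed in WT condition 1, and held 136 reads in WT condition 2. Its centred log2 ratio in condition 2 was -0.34 (-0.73 to 0.04). Of its islands only that of WT condition 2 reached into the window, and both deficient islands ended 1.60 kb before it. With this edge island the window sum was 624 reads in WT condition 2, and the window ratio in condition 2 was -0.62 (-0.81 to -0.44), against -0.38 when reads were counted in proportion to the part of each island inside the window.

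At Prf1, which lies between Adamts14 and Pald1 on GRCm38, mSin3A formed a pair of neighbouring regions. In deficient cells the first had shorter islands, and the second was split in condition 1 and not listed in condition 2. The first, chromosome 10, 60755201 to 60766999, held 158 and 197 reads in deficient cells and 188 and 272 reads in WT cells. Its islands spanned 5199 and 6799 bp in deficient cells and 7199 and 11799 bp in WT cells. The centred log2 ratio was -0.19 in condition 1 (-0.50 to 0.12) and -0.38 in condition 2 (-0.65 to -0.11). Across whole lists, the median island was also shorter in deficient cells. It spanned 3199 and 3799 bp, against 3599 and 4199 bp in WT cells.

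The second Prf1 region, 60768201 to 60774799, showed the plainest difference in shape. In deficient condition 1 it was broken into 60768601 to 60770199 with 51 reads and 60772401 to 60774799 with 47 reads, and in deficient condition 2 no island was listed. In WT cells it was a single island in each condition, 60768801 to 60773399 with 112 reads and 60768201 to 60773199 with 134 reads. In condition 1 the read numbers of the region were close, 98 in deficient cells and 112 in WT cells. The centred log2 ratio was -0.13 (-0.54 to 0.27), and the deficient calls ran further than the WT island. This pattern of calls, missing only in deficient condition 2, was shared by 1.61% of all merged regions. Along the window, 2400 bp from 60764000 to 60766399 and 2201 bp from 60770200 to 60772400 were called in both WT libraries and in neither deficient library. Over the 7 windows such bases made up 6.47% of all bases called in any library, against 3.90% over all islands. Of them 4601 bp lay at Prf1 and 200 bp at Nkg7, and no other window held any. No base of the windows was called in both deficient libraries and in neither WT library, against 6.28% over all islands.

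Summed over the Prf1 window, deficient cells had 256 and 197 reads and WT cells 300 and 406 reads, so the genotypes did not overlap within it. However, deficient condition 1 listed a further island 1.00 kb after the window, 60779001 to 60783199, with 72 reads, not counted here. With it the deficient sum of condition 1 would exceed the WT sum, so the separation depends on the window edge. Among bins with islands in all 4 libraries, 23.2% had both deficient values below both WT values and 14.6% the reverse. Prf1 was the only one of 4 windows with islands in all libraries to do so, which is close to that background. The centred log2 ratio was -0.17 in condition 1 (-0.41 to 0.08) and -0.96 in condition 2 (-1.21 to -0.71). Only the ratio of condition 2 exceeded counting error. With lists of equal length (the top 11151 islands of each by reads, a setting chosen after seeing the data) the ratio of condition 1 was -0.87. That length is the whole WT condition 2 list, so only the other lists could lose islands. There the deficient sum fell to 158 reads, as the fragments of 51 and 47 reads dropped out while the WT sum stayed at 300. Between conditions the reads moved in opposite directions, by -0.45 (-0.73 to -0.18) in deficient cells and 0.32 (0.10 to 0.54) in WT cells, on the same scale as condition 2 over condition 1. Density ran the other way from read number: 27.8 and 29.0 reads per kb in deficient cells and 25.4 and 24.2 reads per kb in WT cells, so the lower read numbers lay in a shorter called length.

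The granzyme windows were nearly bare. Gzmb, which neighbours Gzmc in the granzyme cluster, had 1 island, chromosome 14, 56878001 to 56881599, in deficient condition 2, with 105 reads and 29.2 reads per kb, at the 45.5th percentile of that list. It was listed in neither WT library and not in deficient condition 1, a pattern shared by 8.77% of all 23510 merged regions and, by window, by 1.25% of bins. The nearest island to the Gzmb window lay 11.8 kb away in deficient condition 1, 23.2 kb away in WT condition 1 and 4.40 kb away in WT condition 2. At Gzma, a neighbour of Gzmk, no library listed an island inside the window, as in 79.2% of bins. The nearest islands to Gzma lay 47.2 and 46.2 kb away in deficient cells and 47.2 and 46.0 kb away in WT cells. The lists do not show whether weaker mSin3A signal was present at either gene.

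At Ifng, the only cytokine gene outside the chemokines, an island was listed in deficient condition 1 and in WT condition 2 and in no other library. The deficient island, chromosome 10, 117876401 to 117879199, held 59 reads at 21.1 reads per kb. The WT island, 117874601 to 117881199, contained it entirely and held 116 reads at 17.6 reads per kb, the 5.96th percentile of density in its list. The genotype with a listed island thus differed between the conditions, but with lists of equal length the deficient island dropped out and only that of WT condition 2 was listed. The WT island could not drop out, because the list of WT condition 2 sets that length. As deposited, this pattern was found in 1.43% of all merged regions and 0.343% of bins. Just before the window, an island ending at 117856599 was listed in deficient condition 1 with 40 reads, in WT condition 1 with 56 reads and in WT condition 2 with 54 reads.

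The chemokine gene Ccl5 had an island in every library, but its extent and its breaks differed from library to library within each genotype. Deficient condition 1 listed chromosome 11, 83344801 to 83352399, with 151 reads. Deficient condition 2 listed 3 separate islands over the window: 83335601 to 83340999 with 86 reads, 83342401 to 83344399 with 45 reads, and 83349601 to 83350799 with 35 reads. WT condition 1 listed 83347601 to 83350799 with 99 reads, and WT condition 2 listed 83342401 to 83352799 with 218 reads. The bases common to all 4 libraries were the 1199 bp from 83349601 to 83350799, which is the whole of the smallest island.

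By window, Ccl5 held 151 and 166 reads in deficient cells and 99 and 218 reads in WT cells, so the deficient values lay between the WT values. The centred log2 ratio was 0.67 in condition 1 (0.30 to 1.05) and -0.31 in condition 2 (-0.61 to -0.01). With lists of equal length the latter was -1.26, but only the island of 86 reads was then left in deficient condition 2. That island shared no base with the WT island of condition 2, so -1.26 is no change of 1 region. With the lists as deposited but without this island, which merged with no other, the ratio in condition 2 was -1.36 (-1.75 to -0.99). Reads per kb gave -0.65 in condition 1, the opposite of the read ratio, since the called length was 7599 bp in deficient cells and 3199 bp in WT cells. Between conditions, deficient reads differed by 0.06 (-0.27 to 0.39) and WT reads by 1.03 (0.68 to 1.38), condition 2 over condition 1.

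Ccl3 and Ccl4, which are adjacent and transcribed in opposite directions on GRCm38, were the only window with islands in all 4 libraries and no base common to them. Near the start of the window, chromosome 11, 83452401 to 83456199, islands of 100 reads in deficient condition 1, 83 reads in WT condition 1 and 109 reads in WT condition 2 were listed, and none in deficient condition 2. A small region, 83461801 to 83463399, was listed in deficient condition 2 with 51 reads and in WT condition 1 with 36 reads. Towards the middle, 83473001 to 83477999 held 71 reads in deficient condition 1 and 105 reads in WT condition 1, and was listed in neither library of condition 2. A last island, 83470401 to 83472599 with 43 reads, was found in deficient condition 1 alone.

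Read numbers in the Ccl3 and Ccl4 window were lower in condition 2 in both genotypes. They were 214 and 51 in deficient cells and 224 and 109 in WT cells. The centred log2 ratio of condition 2 over condition 1 was -2.15 (-2.62 to -1.70) in deficient cells and -1.15 (-1.50 to -0.82) in WT cells. Reads per kb ran the other way, at 0.22 in deficient cells and 0.36 in WT cells, over a shorter called length in condition 2. The ratio of deficient over WT was 0.00 in condition 1 (-0.28 to 0.27) and -1.01 in condition 2 (-1.52 to -0.52), where each library listed a single island and the 2 islands shared no base. These ratios are of sums over separately called islands, and no merged region of the window had a ratio in condition 2.

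**Figure D4:**
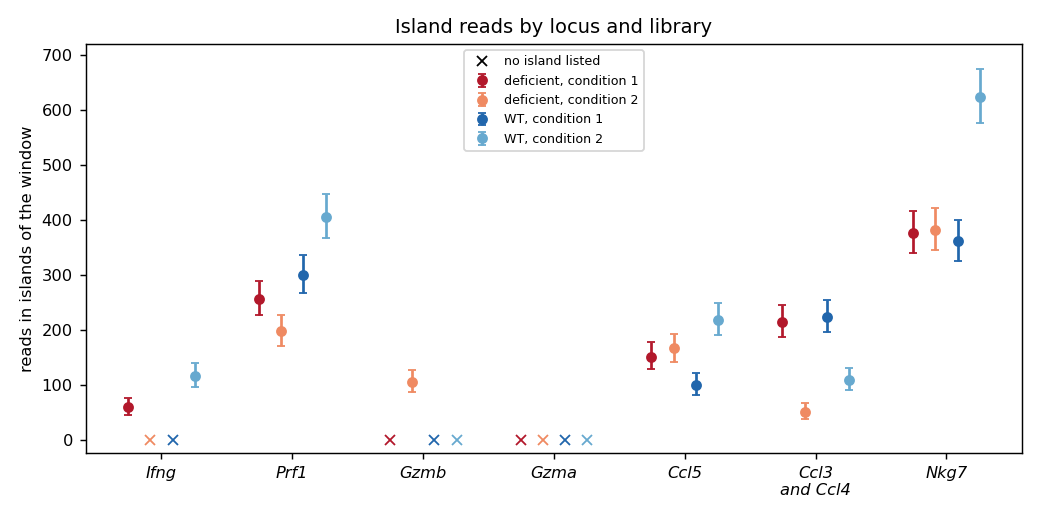
Reads in the islands of each window (vertical axis), per library, with exact Poisson 95% intervals for counting error; crosses mark libraries with no listed island, whose read number is unknown. Deficient and WT values are apart only at Prf1, where 256 and 197 reads stand against 300 and 406. An island of 72 reads in deficient condition 1 lies 1.00 kb past that window and is not counted.

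Across the 4 windows with islands in all libraries, fewer island reads were listed in deficient cells in condition 2, and no common direction was found in condition 1. In condition 1 the counting interval lay above 0 in 1 of 4 windows (26.6% of bins with islands in both libraries) and below 0 in none (28.4%). In condition 2 it lay below 0 in 4 of 4 (27.8%) and above 0 in none (28.8%). With lists of equal length the Ccl3 and Ccl4 island of deficient condition 2 dropped out, so 3 windows had islands in all libraries. Their ratios in condition 2 were -0.96 at Prf1, -1.26 at Ccl5 and -0.62 at Nkg7. At Ccl5 this ratio set islands without a shared base against each other. The Nkg7 ratio, here and as deposited, included the edge island of WT condition 2. The main Nkg7 region alone gave -0.27 (-0.47 to -0.07) with the lists as deposited. The ratio of listed reads passed 2-fold in 1 of 4 windows in condition 2, that of Ccl3 and Ccl4, where it sets islands at different places against each other and is no change of 1 region, against 7.65% of bins at least 2-fold lower in deficient cells, and in none in condition 1 (7.67% of bins higher and 8.39% lower). None was 2-fold higher in condition 2 (7.54% of bins). By merged region, 6 were called in both genotypes in condition 1, and none of them passed 2-fold in either direction (3.01% of all such regions higher and 4.62% lower). In condition 2, 1 of 4 was at least 2-fold lower in deficient cells, that of Ccl5 (4.17%), and none was higher (2.90%). The 4 include the region at the start of the Nkg7 window, whose deficient island lies outside the window. The sign of the window ratio differed between the conditions at Ccl5 and Nkg7, as in 45.8% of bins with islands in all 4 libraries. Counting intervals were passed by more than 50% of bins in either condition, so passing them was common between these libraries. Reads per kb of called length gave ratios above 0 in condition 2 at Prf1 (0.27), Ccl3 and Ccl4 (0.08) and Nkg7 (0.17). Within WT, reads of condition 2 over condition 1 were higher at Prf1 (0.32), Ccl5 (1.03) and Nkg7 (0.68, with the edge island). They were lower at Ccl3 and Ccl4 (-1.15). Within deficient cells the same ratios were -0.45, 0.06, -0.05 and -2.15, in that order of windows. A share of single libraries in the direction of condition 2 was not tested.

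**Figure D5:**
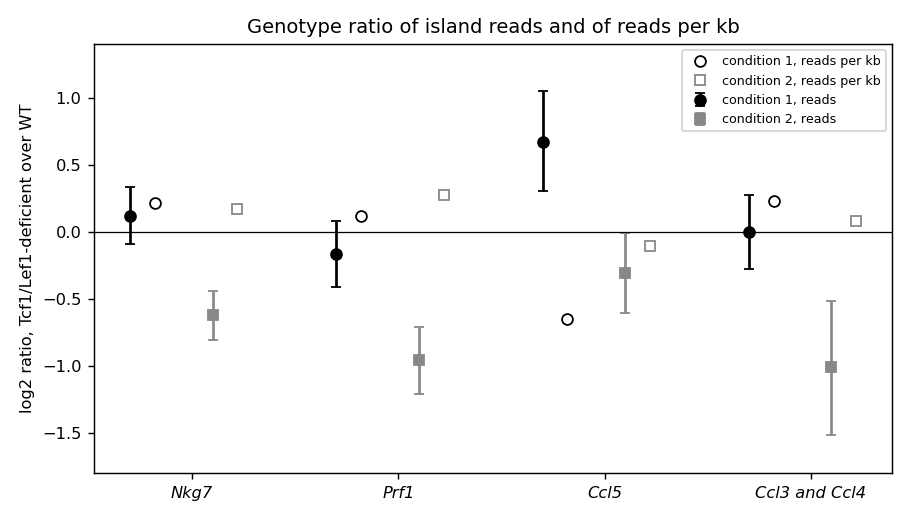
log2 ratio of Tcf1/Lef1-deficient over WT (vertical axis) in the 4 windows with islands in all libraries: filled symbols are island reads with exact 95% counting intervals, open symbols reads per kb of called length, each centred on the median of shared regions. In condition 2 all 4 read ratios lie below 0, from -0.31 to -1.01, whereas reads per kb lie between -0.11 and 0.27. The Nkg7 read ratio of condition 2 includes an edge island of WT condition 2, and that of Ccl3 and Ccl4 compares islands at different places.

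Calls by region gave no genotype-specific set. The islands lay in 12 merged regions, of which 3 were called in all 4 libraries (24.0% of all merged regions), 3 in 1 library (48.1%), and none in both libraries of 1 genotype and neither of the other (8.98% for deficient cells and 2.91% for WT cells). In condition 1, 3 of 12 regions were called in deficient cells and not in WT (28.6%) and 1 in WT and not in deficient cells (20.3%). In condition 2 these counts were 3 (23.7%) and 3 (15.2%). All these counts take the region at the start of the Nkg7 window as called in both deficient libraries and WT condition 2. Its deficient islands lie outside the window, so by window islands alone it would be listed in WT condition 2 only. It would then leave the deficient count of condition 1 and join the WT count of condition 2 and the single-library regions. When every list was held to the 11151 islands richest in reads, the second Prf1 region, 60768201 to 60773399, became a region of both WT libraries alone, since the deficient fragments of 51 and 47 reads dropped out; 4.05% of regions had that pattern under this setting.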

How the data were processed

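mSin3A ChIP-seq libraries of sorted splenic CD8 T cells were analysed, 1 for each genotype and condition. FastQC, Bowtie2 2.2.5 and SICER 1.1 with build mm9 are named in the submitters' processing notes. The sources used here do not give the window, gap and threshold settings or say if inputs served as background. Each deposited list gives chromosome, start, end and a whole number per island, which was read as a raw read count from its layout and values, since the deposited lists have no header. Counts are scaled neither for depth nor for width. Every deposited start fell on a 200 bp step; 1 was added to starts, ends are as deposited, and widths are end minus deposited start.

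The 8 genes and their mm9 windows were chosen with earlier results of these data known. All islands sharing at least 1 bp with a window were named. Island reads were summed per window, all reads of an island being counted. Ratios are log2 of deficient over WT, less the median over 5637 regions called in all 4 libraries (-0.06 in condition 1 and -0.09 in condition 2), with exact Clopper-Pearson 95% intervals; sums have exact Poisson intervals. Read numbers without molecular identifiers are not independent molecules, so intervals cover counting error only. Background came from 95102 bins of 27 kb and from 23510 merged regions. No annotation of build mm9 was used, so islands were not assigned to exons or promoters, and other genes of the cytotoxic programme were not analysed here. Gene neighbours are from GENCODE vM21 (GRCm38) and promoters from RefSeq. The scripts were tested on simulated lists, where 2000 of 2000 regions came back with their call pattern. The simulated regions lay well apart with at most 1 island per library, so split islands and islands across a window edge were not covered. Alternatives covered window overlap, joining, weak and short islands and scaling; equal list length was added after seeing the data. Python 3.11.15, numpy 2.4.6 and scipy 1.17.1 were used.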

Additional observations from a re-analysis of the deposited data

Results flagged for a closer look

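In 3 windows the direction between genotypes differed from condition 1 to condition 2; these differences were not tested, as each value is from 1 library. At Ifng the island was listed in deficient cells and not in WT in condition 1, with 59 reads, and in WT and not in deficient cells in condition 2, with 116 reads. With lists of equal length only the WT island was listed, and it could not drop out under that setting. At Ccl5 the centred log2 ratio of reads was 0.67 in condition 1 and -0.31 in condition 2. At Nkg7 it was 0.12 in condition 1, within counting error, and -0.62 in condition 2. The -0.62 counted an edge island of WT condition 2 in full, and the main Nkg7 region alone gave -0.27 (-0.47 to -0.07). Among bins with islands in all 4 libraries, 45.8% had ratios of opposite sign in the 2 conditions.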

How the results depend on the processing

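No paired analysis was possible because each genotype and condition has 1 library, and leaving out a library leaves no comparison. With the upper 50% of each list by reads, islands in the windows numbered 4 and 2 in deficient cells and 3 in WT condition 1, windows with an island numbered 2 in deficient condition 2 and 2 and 3 in WT cells, merged regions numbered 6, with 1 in a single library and 1, at Prf1, in both WT and neither deficient library. The covered share under this setting was 13.1% and 8.75% in deficient cells and 10.8% and 21.2% in WT cells. With lists of equal length, deficient cells had 5 and 4 islands, covering 14.3% and 13.2%, 1 region was called in both WT and neither deficient library, and the read ratio was -0.87 at Prf1 in condition 1 and -1.26 at Ccl5 in condition 2. The -0.87 arose as the deficient fragments of the second Prf1 region dropped out. The -1.26 set islands without a shared base against each other. No deficient island was then listed at Ifng, nor in condition 2 at Ccl3 and Ccl4, which had no ratio there. The WT condition 2 list kept every island, because it sets the length. Joining islands within 2 kb left 1 region in a single library. Counting reads in proportion to the part inside the window gave -0.38 at Nkg7 in condition 2.

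Reads per kb in place of reads turned the sign of Prf1 (0.12) and Ccl5 (-0.65) in condition 1 and, in condition 2, of Prf1 (0.27), Ccl3 and Ccl4 (0.08) and Nkg7 (0.17). Called length differed between genotypes in each of these windows. Of 39 alternatives for ratios of single windows, 31 stayed within the counting interval. Unlisted stretches and the inputs limit every call of absence.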
